A study of Homo sapiens with 12 samples.

Results

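The genes described here encode 10 enzymes of fatty acid synthesis and desaturation, chosen by name: ACLY, ACACA, ACSS2, FASN, SCD, ELOVL6, FADS1, FADS2, ACSL3 and ME1. Each was found as a single row among the 59172 features of the deposited expression table, and all 10 had enough reads to be tested. They were followed in HCT-116, a human colorectal carcinoma cell line, in 4 groups of 3 libraries each. In the first group SHP2, the phosphatase encoded by PTPN11, was silenced (titles with shSHP2, a short hairpin RNA) and CPT-11 was given for 24 h. The second group was wild type and received lovastatin for 4 h before 24 h of CPT-11, the third was wild type with CPT-11 for 24 h, and the fourth was wild type and untreated. CPT-11, or irinotecan, is a topoisomerase I poison used in colorectal cancer, and lovastatin is a statin, a drug that inhibits cholesterol synthesis. For the silenced samples the treatment label names lovastatin too, which neither title nor protocol does, and titles were followed here. No group received lovastatin without CPT-11, and no group was silenced without CPT-11. The labels do not say whether the silenced cells were a pool or a clone, name no control hairpin, and do not tell whether libraries of 1 group come from different cultures, so the p-values here measure spread among libraries that may be technical.

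Fatty acid synthesis starts in the cytosol from acetyl-CoA. ATP citrate lyase (ACLY) makes it from citrate exported by mitochondria, and ACSS2 makes it from acetate. Acetyl-CoA carboxylase (ACACA) turns it into malonyl-CoA, and fatty acid synthase (FASN) joins these units into palmitate with NADPH, part of which comes from malic enzyme (ME1). ELOVL6 lengthens palmitate, SCD introduces the first double bond into saturated chains, FADS1 and FADS2 desaturate polyunsaturated chains, and ACSL3 couples fatty acids to CoA for use in lipids. Many of these genes are known targets of SREBP transcription factors, membrane-bound proteins that are released to the nucleus when sterols are low. SREBP-2 is best known for cholesterol synthesis genes and SREBP-1 for lipogenic genes.

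The libraries held 14447847 to 16224271 reads assigned to genes. PTPN11 measured 6.01, 6.54 and 7.15 FPKM (reads scaled by gene length and by library size) in the silenced libraries, against 43.2 to 55.4 FPKM in the other 9. The epithelial keratin gene KRT8 measured 256 to 337 FPKM and the adhesion gene EPCAM 62.0 to 87.8 FPKM over all libraries, and 8 of 10 colon epithelial markers exceeded 1 FPKM in at least 1 library, VIL1 and LGALS4 being the others. Among markers of adipocytes, blood cells, endothelium and fibroblasts, only the collagen gene COL1A1 exceeded 1 FPKM in any library, and 4 adipocyte markers summed to at most 0.571 FPKM. Some of these markers moved with the groups. COL1A1 averaged 5.57 ± 0.43 FPKM in silenced cells, 4.80 ± 0.19 with lovastatin and CPT-11, 4.11 ± 0.81 with CPT-11 alone and 3.52 ± 0.35 in untreated cells, and was higher in silenced cells than with CPT-11 alone (limma, log2 difference 0.37, adjusted p = 0.035). The epithelial genes CDH1, CLDN4 and EPCAM were higher there too, by 0.65, 0.44 and 0.31, and CDH1, KRT19 and KRT20 were higher with CPT-11 than in untreated cells, by 0.23, 0.45 and 0.51. Their part in the results was not tested. Replicate 3 of the CPT-11 group differed from replicates 1 and 2, which lay at the far end of all 12 libraries in the measures that follow. The slope of its values on transcript GC content was 0.08 (log2 per 10 percentage points, relative to each gene's mean over libraries), where replicates 1 and 2 had -0.15 and -0.17. The 7SL RNA gene RN7SL2 measured 400.2 FPKM in it, where replicates 1 and 2 had 37.2 and 17.6 FPKM. Silenced libraries had 1065 to 1469 FPKM of it, lovastatin libraries 227 to 346 and untreated libraries 71.1 to 155, so its level moved with the groups. The ferritin gene FTH1 measured 360 to 441 FPKM in silenced and lovastatin libraries, 422 in CPT-11 replicate 3, 106 and 73.9 in CPT-11 replicates 1 and 2, and 191 to 413 in untreated libraries. The part of these differences between libraries in the results below was not tested. Results that involve CPT-11 alone are therefore also given without replicate 3 where the call of a member changes, and as counts for some of the lists.

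In the 2 steps that make acetyl-CoA, the lovastatin libraries were high. ACLY (ENSG00000131473, chromosome 17, 41866908 to 41930542, minus strand, GRCh38 as are all coordinates below) measured 76.7, 78.9 and 81.7 FPKM in the silenced libraries, 108.9, 109.3 and 110.5 with lovastatin and CPT-11, 73.0, 75.6 and 77.2 with CPT-11 alone, and 81.5, 78.0 and 80.2 in untreated cells. The lovastatin libraries lay above all others, and the silenced libraries overlapped both CPT-11 and untreated libraries. ACSS2 (ENSG00000131069, chromosome 20, 34872146 to 34927962, plus strand) measured 11.9, 12.04 and 10.4 FPKM in the silenced libraries, 29.9, 30.7 and 31.0 with lovastatin and CPT-11, 13.02, 13.7 and 11.8 with CPT-11 alone, and 12.4, 12.1 and 11.6 in untreated cells. Again the lovastatin libraries stood alone, and the ranges of the other groups overlapped. The NADPH source ME1 (ENSG00000065833, chromosome 6, 83210389 to 83431071, minus strand) measured 19.0, 20.4 and 22.7 FPKM in the silenced libraries, 25.3, 24.5 and 25.6 with lovastatin and CPT-11, 26.6, 27.6 and 22.7 with CPT-11 alone, and 26.01, 27.9 and 28.96 in untreated cells. Here it was the silenced libraries that were low, with CPT-11 replicate 3 next to them.

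The enzymes that build the chain did not move together. ACACA (ENSG00000278540, chromosome 17, 37084988 to 37406818, minus strand) measured 16.7, 16.6 and 17.0 FPKM in the silenced libraries, 16.03, 18.0 and 18.4 with lovastatin and CPT-11, 16.5, 17.4 and 15.3 with CPT-11 alone, and 19.7, 20.6 and 21.7 in untreated cells. The untreated libraries were above the 9 treated ones, which overlapped. FASN (ENSG00000169710, chromosome 17, 82078333 to 82098332, minus strand) measured 186.5, 185.5 and 185.9 FPKM in the silenced libraries, 249.6, 263.9 and 247.0 with lovastatin and CPT-11, 129.7, 127.8 and 170.3 with CPT-11 alone, and 167.9, 155.6 and 147.2 in untreated cells. The lovastatin group was highest and the silenced group next. CPT-11 replicate 3 was above all untreated libraries, whereas replicates 1 and 2 were below them.

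Among elongation and desaturation genes SCD had the widest differences. SCD (ENSG00000099194, chromosome 10, 100347124 to 100364834, plus strand) measured 137.7, 133.9 and 132.6 FPKM in the silenced libraries, 319.1, 325.1 and 339.3 with lovastatin and CPT-11, 140.8, 144.8 and 139.4 with CPT-11 alone, and 208.4, 203.3 and 209.2 in untreated cells. No groups overlapped, and the order was lovastatin, untreated, CPT-11 alone and silenced, the silenced mean being 0.951 of the CPT-11 mean. ELOVL6 (ENSG00000170522, chromosome 4, 110045846 to 110199199, minus strand) measured 9.29, 9.68 and 10.3 FPKM in the silenced libraries, 10.9, 10.02 and 11.1 with lovastatin and CPT-11, 8.06, 8.84 and 6.65 with CPT-11 alone, and 8.29, 8.93 and 9.95 in untreated cells. The CPT-11 libraries were below those of both other treated groups and overlapped the untreated ones.

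The polyunsaturated fatty acid desaturase genes lie head to head and overlap on chromosome 11. FADS1 (ENSG00000149485, 61799625 to 61829318, minus strand) measured 11.2, 11.9 and 12.6 FPKM in the silenced libraries, 15.4, 14.9 and 15.3 with lovastatin and CPT-11, 12.2, 13.1 and 13.01 with CPT-11 alone, and 10.1, 9.85 and 10.1 in untreated cells. The untreated libraries were lowest and the lovastatin libraries highest, while silenced and CPT-11 libraries overlapped. FADS2 (ENSG00000134824, 61792980 to 61867354, plus strand) was the lowest member, at 2.15, 2.16 and 2.18 FPKM in the silenced libraries, 2.19, 2.22 and 2.22 with lovastatin and CPT-11, 1.88, 1.39 and 2.10 with CPT-11 alone, and 1.89, 2.08 and 2.00 in untreated cells, from 235 to 401 reads per library. The annotated exons of FADS1 and FADS2 share 490 bases, 4.79% of those of FADS1 and 4.44% of those of FADS2, and since the strand setting of the counting is not given in the sources used here, reads from that stretch cannot be assigned to either gene. FADS2 also shares 49 exon bases (0.444%) with FEN1, a gene on the same strand with 2251 to 3265 reads per library. ACSL3 (ENSG00000123983, chromosome 2, 222860934 to 222944639, plus strand) measured 13.3, 14.5 and 13.4 FPKM in the silenced libraries, 20.3, 19.5 and 20.9 with lovastatin and CPT-11, 18.2, 19.2 and 14.1 with CPT-11 alone, and 25.9, 27.8 and 31.0 in untreated cells. Untreated cells were highest and silenced cells lowest, and CPT-11 replicate 3 fell within the silenced range.

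**Figure D1:**
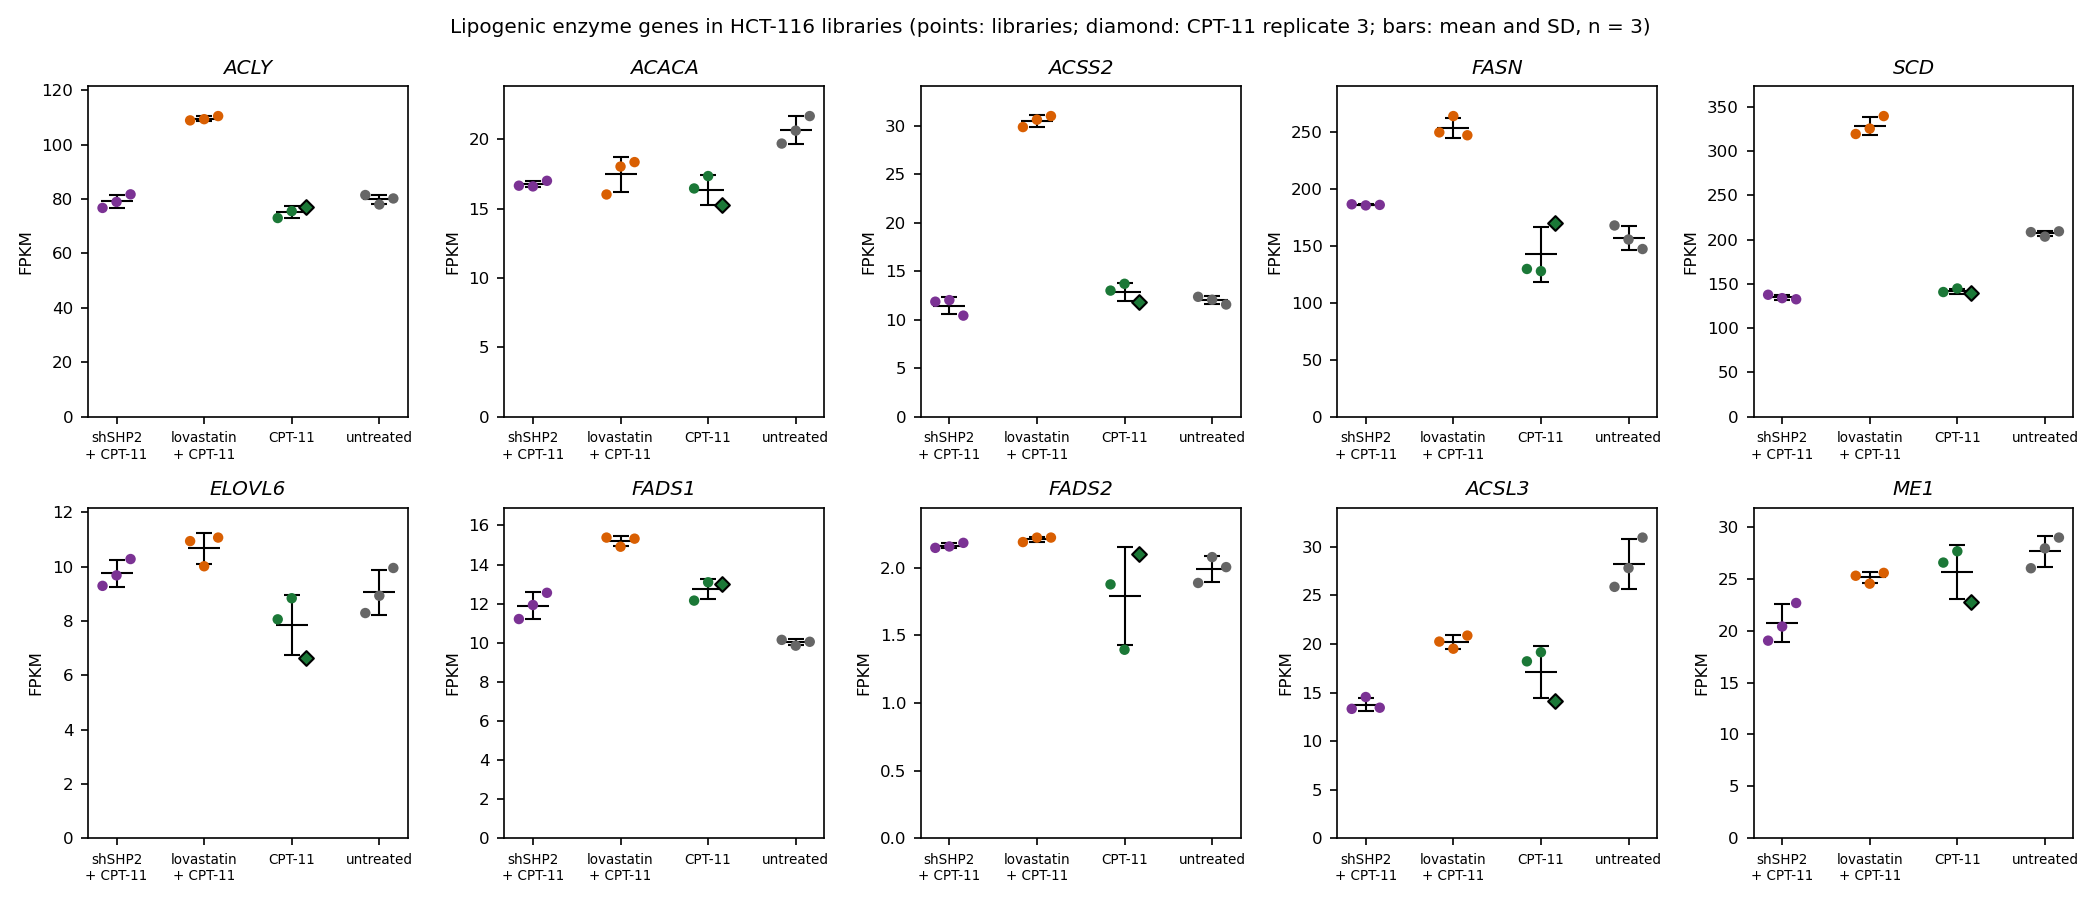
FPKM of each of the 10 genes (vertical axis, from 0) in the 4 groups of 3 libraries, with the mean and SD as black bars and CPT-11 replicate 3 as a diamond. The lovastatin libraries are highest for ACLY, ACSS2, FASN, SCD and FADS1, while the untreated libraries are highest for ACACA and ACSL3.

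In untreated cells, levels per length ran in the order SCD (207.0 ± 3.2 FPKM, mean ± SD, n = 3), FASN (156.9 ± 10.4), ACLY (79.9 ± 1.8), ACSL3 (28.2 ± 2.6), ME1 (27.6 ± 1.5), ACACA (20.7 ± 0.99), ACSS2 (12.01 ± 0.40), FADS1 (10.02 ± 0.15), ELOVL6 (9.06 ± 0.84) and FADS2 (1.99 ± 0.096). ACSL3 and ME1 overlapped between libraries, as did FADS1 and ELOVL6.

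The response to CPT-11 itself was read against untreated cells. SCD, ACSL3 and ACACA fell and FADS1 rose. SCD averaged 141.7 ± 2.8 FPKM with CPT-11 and 207.0 ± 3.2 in untreated cells, a log2 difference of -0.54 ± 0.05 (SE, on the log2(FPKM + 1) scale as are all differences below, limma adjusted p = 2.1e-05). ACSL3 averaged 17.2 ± 2.7 FPKM with CPT-11 and 28.2 ± 2.6 in untreated cells (-0.69 ± 0.10, adjusted p = 0.00084), and ACACA 16.4 ± 1.1 and 20.7 ± 0.99 FPKM (-0.32 ± 0.06, adjusted p = 0.0064). FADS1 averaged 12.8 ± 0.52 FPKM with CPT-11 and 10.02 ± 0.15 in untreated cells (0.32 ± 0.05, adjusted p = 0.0022). In bulk RNA, fewer cells that express a gene and less RNA per cell cannot be told apart. So 4 of 10 members passed, 1 higher and 3 lower, beside 16.6% of all 18047 genes tested (8.85% higher and 7.72% lower). Their median difference was -0.13, against -0.01 over all genes.

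The other members did not pass this comparison. ACLY differed by -0.09 ± 0.04 (adjusted p = 0.22), ACSS2 by 0.09 ± 0.07 (adjusted p = 0.41), ELOVL6 by -0.19 ± 0.09 (adjusted p = 0.21), FADS2 by -0.11 ± 0.09 (adjusted p = 0.48) and ME1 by -0.11 ± 0.08 (adjusted p = 0.42). FASN averaged 142.6 ± 24.0 FPKM with CPT-11 and 156.9 ± 10.4 in untreated cells (-0.15 ± 0.10, adjusted p = 0.35). Without CPT-11 replicate 3 FASN passed, at -0.28 ± 0.06 (adjusted p = 0.0052), so that 5 members passed beside 24.6% of genes. With CPT-11 and untreated libraries alone in the fit, the call of ACACA ended (adjusted p = 0.051). With a correction for GC content and length, ACLY (-0.11 ± 0.03, adjusted p = 0.030) and ELOVL6 (-0.18 ± 0.06, adjusted p = 0.036) also passed as lower, 6 members in all beside 25.6% of genes.

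Of 15 genes listed as regulators of lipogenesis, 14 were tested, and 4 fell and 1 rose with CPT-11. With all libraries in the fit, 8.85% of all genes passed as higher and 7.72% as lower, beside these and the lists that follow. SREBF1, which encodes SREBP-1, averaged 16.8 ± 3.2 FPKM with CPT-11 and 26.6 ± 1.6 in untreated cells (-0.65 ± 0.10, adjusted p = 0.0017). INSIG1, which retains SREBPs in the endoplasmic reticulum and is itself an SREBP target, averaged 12.6 ± 0.58 FPKM with CPT-11 and 16.5 ± 0.80 in untreated cells (-0.37 ± 0.06, adjusted p = 0.0025). MID1IP1, which encodes a protein that promotes polymerisation of acetyl-CoA carboxylase, fell as well (-0.48 ± 0.13, adjusted p = 0.024). Of 20 mevalonate and sterol synthesis genes, 4 fell and 2 rose, with a median of -0.04. Among elongation and desaturation genes outside the members, TECR and HACD2, of the elongation cycle of the endoplasmic reticulum, fell by 0.37 and 0.34, and FADS3, of the desaturase family, rose by 0.64 ± 0.13 (adjusted p = 0.0059), in a list where 3 of 13 tested genes rose and 2 fell. For citrate, acetyl-CoA and NADPH supply, 1 of 10 tested genes rose, the malate dehydrogenase gene MDH1, and 1 fell, the citrate synthase gene CS. Leaving out CPT-11 replicate 3, 2 regulators rose and 6 fell, and of the sterol genes 3 rose and 6 fell, beside 24.6% of all genes.

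What lovastatin before CPT-11 added was read against CPT-11 alone. SCD, ACSS2, FASN and ACLY rose, and no member fell. SCD averaged 327.8 ± 10.4 FPKM with lovastatin and CPT-11 and 141.7 ± 2.8 with CPT-11 alone, 2.31-fold higher (1.20 ± 0.05, adjusted p = 1.2e-07). ACSS2 averaged 30.5 ± 0.58 FPKM with lovastatin and CPT-11 and 12.9 ± 0.95 with CPT-11 alone, 2.37-fold higher (1.19 ± 0.07, adjusted p = 3.6e-06). FASN averaged 253.5 ± 9.1 FPKM with lovastatin and CPT-11 and 142.6 ± 24.0 with CPT-11 alone (0.84 ± 0.10, adjusted p = 0.0016), and ACLY 109.6 ± 0.82 and 75.3 ± 2.1 FPKM (0.54 ± 0.04, adjusted p = 9.2e-05). In this comparison 0.465% of all genes passed, 0.393% higher and 0.072% lower, beside 4 of 10 members higher. By p-value SCD ranked 4, ACSS2 7, ACLY 16 and FASN 32 among the 18047 genes.

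The remaining members differed less and did not pass. ELOVL6 was higher with lovastatin in all libraries (0.41 ± 0.09, adjusted p = 0.10), as were FADS1 (0.24 ± 0.05, adjusted p = 0.096), FADS2 (0.21 ± 0.09, adjusted p = 0.23) and ACSL3 (0.23 ± 0.10, adjusted p = 0.23). ACACA differed by 0.09 ± 0.06 (adjusted p = 0.43) and ME1 by -0.02 ± 0.08 (adjusted p = 0.88). The members had a median of 0.32, against 0.00 over all genes. Without CPT-11 replicate 3, ELOVL6 (0.31 ± 0.08, adjusted p = 0.015), FADS1 (0.25 ± 0.05, adjusted p = 0.0073) and FADS2 (0.29 ± 0.09, adjusted p = 0.026) passed too, so that 7 of 10 members were higher, but there 16% of all genes passed as higher. FASN no longer passed when the fit held these groups only (adjusted p = 0.078).

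**Figure D2:**
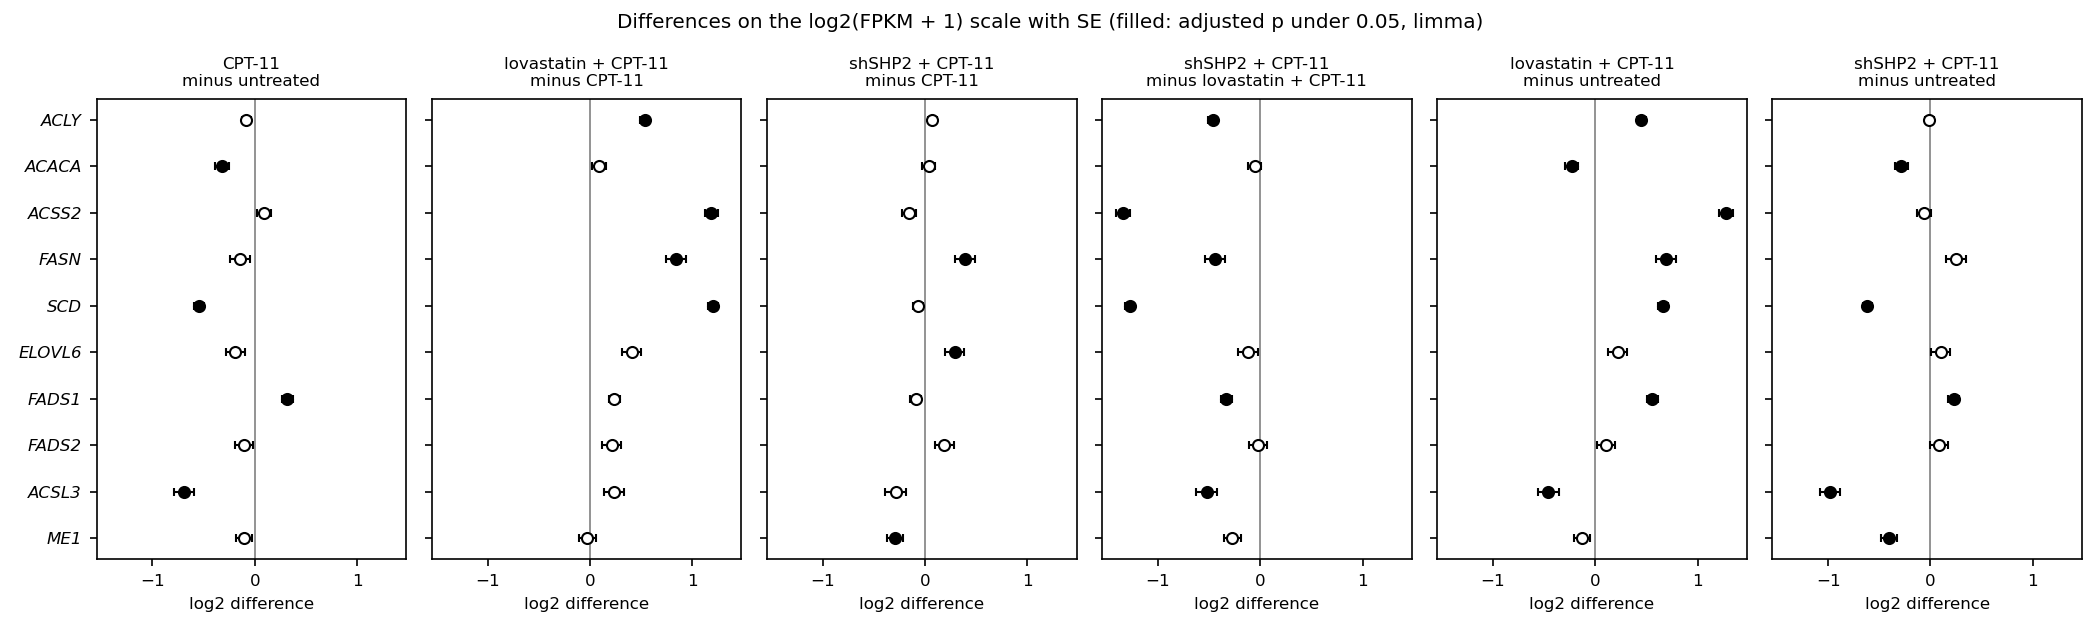
Log2 differences with SE (horizontal axis) of the 10 genes in the 6 comparisons between groups, filled where the adjusted p was under 0.05. SCD and ACSS2 show the largest differences with lovastatin over CPT-11 alone (1.20 and 1.19), and ACSL3 the largest fall in silenced over untreated cells (-0.98).

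The start regions of the members that rose with lovastatin are shown because their genes moved together, while FASN had no entry matched. RefSeq windows (GRCh38.p14) were matched for 9 of the 10 members, with 14 annotated starts. The 250 bases before a start are given 5′ to 3′ in the sense of the gene, with capitals for CCAAT, the box bound by NF-Y, or its reverse complement ATTGG. For ACLY and ACSS2, which have more than 1 annotated start, the windows shown are those that begin upstream of the others in the gene.
SCD (plus strand, chr10:100346983-100347232): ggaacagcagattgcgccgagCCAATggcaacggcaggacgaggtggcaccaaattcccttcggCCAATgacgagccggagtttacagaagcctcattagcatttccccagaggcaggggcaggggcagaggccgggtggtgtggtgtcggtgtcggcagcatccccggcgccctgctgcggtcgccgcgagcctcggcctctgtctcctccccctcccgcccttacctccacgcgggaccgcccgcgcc
ACLY (minus strand, chr17:41919023-41919272): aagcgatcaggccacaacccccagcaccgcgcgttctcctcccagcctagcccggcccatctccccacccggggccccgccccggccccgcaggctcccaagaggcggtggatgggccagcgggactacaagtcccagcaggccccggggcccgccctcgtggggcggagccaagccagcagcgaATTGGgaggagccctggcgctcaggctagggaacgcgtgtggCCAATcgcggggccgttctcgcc
ACSS2 (plus strand, chr20:34874739-34874988): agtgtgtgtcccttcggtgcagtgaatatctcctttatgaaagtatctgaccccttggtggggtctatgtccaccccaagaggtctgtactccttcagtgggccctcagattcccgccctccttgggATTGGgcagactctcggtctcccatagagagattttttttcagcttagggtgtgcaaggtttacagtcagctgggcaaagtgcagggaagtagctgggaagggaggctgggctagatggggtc
SCD holds CCAAT at bases -229 to -225 and -186 to -182, counted from the start. The ACLY window holds ATTGG at -65 to -61 and CCAAT at -23 to -19, and the ACSS2 window ATTGG at -123 to -119. The other ACSS2 window (chr20:34876362-34876611), not shown, holds neither CCAAT nor ATTGG, whereas the other ACLY window holds both. On either strand of the 300 bases around the starts, CCAAT was found in at least 1 window of 6 of the 9 members, namely SCD, ACLY, ACSS2, ACACA, ACSL3 and FADS2, and in 39.7% of 27305 genes with such windows. Counted by window, 8 of 14 held it, against 34.6% of 35116 windows. ACACA, ACSL3 and FADS2, which did not pass with lovastatin over CPT-11 alone, hold it as well. The sterol regulatory element letters TCACNCCAC were found in 0 of the 9 members and in 1.39% of all genes, and the E-box CACGTG in 0 of the 9 and in 8.77%. These searches do not overlap in their letters at any site above, and a missing match says only that these letters are not in these windows.

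The sterol arm moved more widely in the same comparison. Of 20 mevalonate and sterol synthesis genes, 19 rose and none fell, beside 0.393% of all genes higher and 0.072% lower. The median of the 20 was 1.13, against 0.32 for the 10 lipogenic members. HMGCS1, which makes HMG-CoA, averaged 102.8 ± 2.0 FPKM with lovastatin and CPT-11 and 28.7 ± 3.1 with CPT-11 alone, FDFT1, squalene synthase, 79.8 ± 4.6 and 31.3 ± 0.50 FPKM, and the sterol methyl oxidase gene MSMO1 82.2 ± 2.3 and 31.5 ± 2.0 FPKM. Without CPT-11 replicate 3 all 20 passed as higher. Of the 14 regulators tested 3 rose. INSIG1 averaged 44.5 ± 0.40 FPKM with lovastatin and CPT-11 and 12.6 ± 0.58 with CPT-11 alone (1.75 ± 0.06, adjusted p = 1.2e-07), PNPLA3, a lipase gene of lipid droplets, 7.27 ± 0.46 and 3.66 ± 0.47 FPKM (0.83 ± 0.10, adjusted p = 0.0016), and SREBF2, which encodes SREBP-2, 45.3 ± 1.3 and 31.9 ± 4.2 FPKM (0.50 ± 0.08, adjusted p = 0.017). SREBF1 averaged 23.7 ± 0.61 FPKM with lovastatin and CPT-11 and 16.8 ± 3.2 with CPT-11 alone, and did not pass (0.49 ± 0.10, adjusted p = 0.076). With CPT-11 replicate 3 left out, 8 regulators rose and 2 fell, beside 30.5% of all genes.

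Few enzymes next to the members in the pathway passed the test with lovastatin over CPT-11 alone. Of the 10 supply genes tested IDH1, a cytosolic source of NADPH, rose (29.7 ± 1.5 FPKM with lovastatin and CPT-11 and 22.9 ± 1.8 with CPT-11 alone, adjusted p = 0.045). Of the 13 other elongation and desaturation genes tested none passed in either direction with limma, with differences of -0.17 to 0.27 and a median of 0.00. At the same threshold 84 of all 18047 genes passed (0.465%), so that none passing in this list is near the share of all genes. Of the 6 mitochondrial fatty acid synthesis genes none passed either, with a median of 0.14. When CPT-11 replicate 3 was left out, 5 supply genes rose and 2 fell, 2 other elongation and desaturation genes rose and 2 fell, and 2 mitochondrial genes rose, beside 16% of all genes higher and 14.4% lower.

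**Figure D3:**
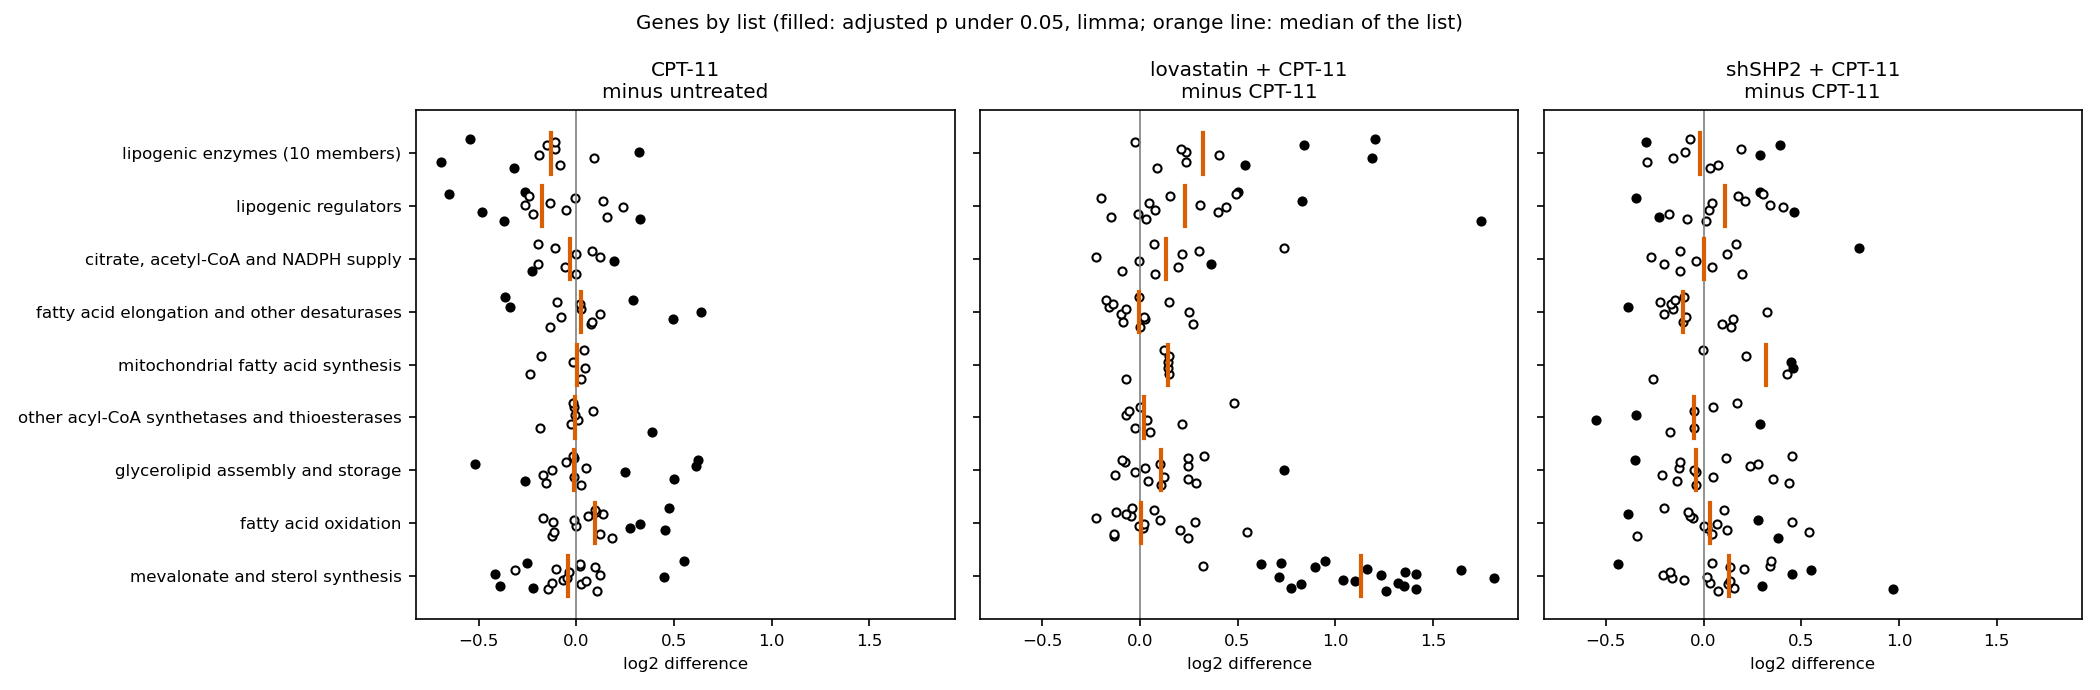
Log2 differences (horizontal axis) of every tested gene in the 10 members and in 8 related lists for CPT-11 minus untreated, lovastatin and CPT-11 minus CPT-11, and silenced with CPT-11 minus CPT-11, with list medians as orange lines and filled points where the adjusted p was under 0.05. In the middle panel the sterol genes centre on 1.13 and the 10 members on 0.32, while the other elongation and desaturation genes centre on 0.00.

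The lovastatin group was also compared with untreated cells, a comparison that shares the lovastatin libraries with the one above. Here 5 members rose and 2 fell, beside 29% of all genes (14.7% higher and 14.3% lower). SCD was 1.58-fold higher with lovastatin and CPT-11 than in untreated cells (0.66 ± 0.05, adjusted p = 3.4e-06), ACSS2 2.54-fold (1.28 ± 0.07, adjusted p = 3.2e-07), FASN 1.62-fold (0.69 ± 0.10, adjusted p = 0.00039) and ACLY 1.37-fold (0.45 ± 0.04, adjusted p = 3.1e-05). FADS1 was 1.52-fold higher (0.56 ± 0.05, adjusted p = 2.9e-05). ACSL3 averaged 20.2 ± 0.68 FPKM with lovastatin and CPT-11 and 28.2 ± 2.6 in untreated cells (-0.46 ± 0.10, adjusted p = 0.0060), and ACACA 17.5 ± 1.3 and 20.7 ± 0.99 FPKM (-0.23 ± 0.06, adjusted p = 0.020). The call of ACACA ended without lovastatin replicate 1 (adjusted p = 0.082) or untreated replicate 2 or 3 (adjusted p = 0.059 and 0.082), and with scaling to library totals (adjusted p = 0.076). ELOVL6 passed as well without CPT-11 replicate 3 in the shared fit (0.22 ± 0.07, adjusted p = 0.032). SCD was lower than in untreated cells with CPT-11 alone and higher with lovastatin before it, whereas ACSL3 and ACACA were lower in both.

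SHP2-silenced cells were compared with CPT-11 alone, both with CPT-11. FASN and ELOVL6 rose, ME1 fell, and SCD, ACLY, ACSS2, ACACA, FADS1, FADS2 and ACSL3 did not pass. FASN averaged 186.0 ± 0.48 FPKM in silenced cells and 142.6 ± 24.0 with CPT-11 alone (0.39 ± 0.10, adjusted p = 0.020), ELOVL6 9.75 ± 0.50 and 7.85 ± 1.1 FPKM (0.29 ± 0.09, adjusted p = 0.0498), and ME1 20.7 ± 1.8 and 25.6 ± 2.6 FPKM (-0.29 ± 0.08, adjusted p = 0.027). SCD averaged 134.7 ± 2.6 FPKM in silenced cells and 141.7 ± 2.8 with CPT-11 alone (-0.07 ± 0.05, adjusted p = 0.28), and ACSS2 11.5 ± 0.88 and 12.9 ± 0.95 FPKM (-0.16 ± 0.07, adjusted p = 0.11). So 3 of 10 members passed beside 22.0% of all genes (10% higher and 12% lower), a share near that of all genes, with a median of -0.02.

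Each of these calls of silenced cells against CPT-11 alone depended on the libraries and the fit. All 3 were lost when the fit held these groups only (adjusted p = 0.079 for FASN, 0.12 for ELOVL6 and 0.098 for ME1). The call of FASN ended without any of silenced replicates 1 to 3 or CPT-11 replicates 1 and 2 (adjusted p = 0.053 to 0.087), and that of ME1 without silenced replicate 1 or 2 or CPT-11 replicate 1 or 2 (adjusted p = 0.079 to 0.11). That of ELOVL6 ended without silenced replicate 1, 2 or 3, lovastatin replicate 1, 2 or 3, CPT-11 replicate 1 or 3, or untreated replicate 2 (adjusted p = 0.063 to 0.13). Without CPT-11 replicate 3 there were 2 members higher, FASN (0.53 ± 0.06, adjusted p = 0.00012) and FADS2 (0.27 ± 0.09, adjusted p = 0.026), and 3 lower, ACSL3 (-0.41 ± 0.07, adjusted p = 0.00097), ME1 (-0.38 ± 0.07, adjusted p = 0.0014) and ACSS2 (-0.21 ± 0.06, adjusted p = 0.018), beside 43.7% of all genes.

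Among lipogenic regulators in silenced cells over CPT-11 alone, 2 of the 14 tested rose and 2 fell, beside 10% of all genes higher and 12% lower, with a median of 0.11. SREBF2 averaged 39.0 ± 0.25 FPKM in silenced cells and 31.9 ± 4.2 with CPT-11 alone (0.29 ± 0.08, adjusted p = 0.026), and PPARG, the nuclear receptor gene of fat cell differentiation, 2.67 ± 0.045 and 3.67 ± 0.46 FPKM (-0.35 ± 0.09, adjusted p = 0.020). HACD2 was the only 1 of 13 other elongation and desaturation genes that passed, at 11.2 ± 0.62 FPKM in silenced cells and 14.9 ± 0.68 with CPT-11 alone (-0.39 ± 0.06, adjusted p = 0.0039). Of 20 sterol synthesis genes 4 rose and 1 fell, with a median of 0.13. Of the 6 mitochondrial fatty acid synthesis genes, MECR and MCAT rose, by 0.45 and 0.46 on the log2 scale. Of these lists without CPT-11 replicate 3, 7 regulators rose and 3 fell, and of the sterol genes 10 rose and 5 fell, beside 43.7% of all genes. Of the 13 other elongation and desaturation genes 2 rose and 5 fell there. Of the 6 mitochondrial genes 4 rose and 1 fell, beside 21.7% of all genes higher and 22% lower.

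The members and the libraries differed in GC content. FASN had the highest GC content of the members, 65.3%, and ACSL3, ME1 and ELOVL6 the lowest, at 38.1%, 39.5% and 41.2%. CPT-11 replicate 3 exceeded the mean of replicates 1 and 2 by 0.40 for FASN (log2), and lay below it by -0.38 for ACSL3, -0.30 for ELOVL6 and -0.24 for ME1. Slopes over GC content were 0.10 to 0.13 in silenced libraries, 0.01 to 0.07 with lovastatin and -0.14 to -0.01 in untreated libraries, on the scale given above. With values corrected for transcript GC content and length, silenced cells differed from CPT-11 alone by 0.08 ± 0.04 for FASN (adjusted p = 0.15), -0.13 ± 0.05 for ME1 (adjusted p = 0.077) and 0.47 ± 0.06 for ELOVL6 (adjusted p = 0.00046), so that the difference of ELOVL6, a gene of low GC content, was larger with the correction. That of ACSL3 was -0.07 ± 0.05 (adjusted p = 0.37), that of ACSS2 -0.23 ± 0.07 (adjusted p = 0.052) and that of FADS2 0.06 ± 0.08 (adjusted p = 0.64). With the same correction lovastatin over CPT-11 alone was 1.23 ± 0.04 for SCD, 1.12 ± 0.07 for ACSS2, 0.62 ± 0.04 for FASN and 0.50 ± 0.03 for ACLY, all past the threshold, and ELOVL6, FADS1 and ACSL3 passed as well. What part RNA quality or library preparation has in these slopes was not tested.

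**Figure D4:**
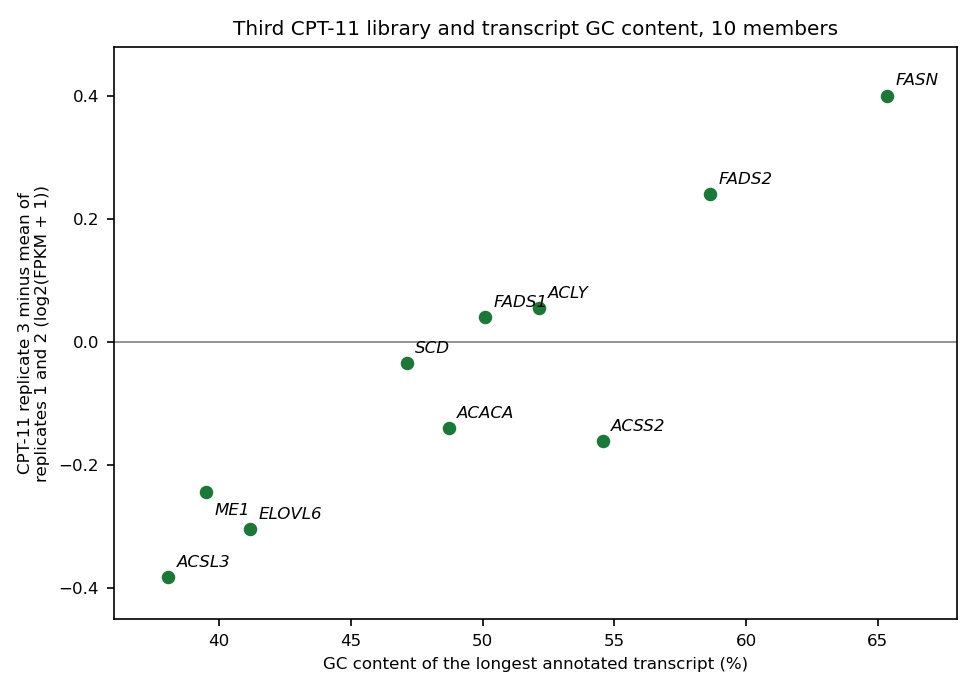
GC content of the longest annotated transcript (horizontal axis, percent) against the log2 difference of CPT-11 replicate 3 from the mean of CPT-11 replicates 1 and 2 (vertical axis) for the 10 genes. FASN, at 65.3% GC, lies at 0.40, and ACSL3, at 38.1% GC, at -0.38.

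Silenced cells and lovastatin-treated cells, both given CPT-11, were compared directly. SCD, ACSS2, ACSL3, ACLY, FASN and FADS1 were lower in silenced cells, and no member was higher, beside 6.84% of all genes (2.58% higher and 4.26% lower). SCD was 0.411 of its lovastatin mean (-1.28 ± 0.05, adjusted p = 6.2e-08) and ACSS2 0.375 (-1.34 ± 0.07, adjusted p = 8.2e-07). ACSL3 averaged 13.8 ± 0.67 FPKM in silenced cells and 20.2 ± 0.68 with lovastatin and CPT-11 (-0.52 ± 0.10, adjusted p = 0.010), and FADS1 11.9 ± 0.67 and 15.2 ± 0.26 FPKM (-0.33 ± 0.05, adjusted p = 0.0039). ACLY differed by -0.46 ± 0.04 (adjusted p = 0.00011) and FASN by -0.44 ± 0.10 (adjusted p = 0.020). The call of FASN ended when any library of either group was left out (adjusted p = 0.054 to 0.079). ME1 passed as well without CPT-11 replicate 3 in the shared fit (-0.27 ± 0.06, adjusted p = 0.016). INSIG1, LPIN1 and HMGCS1 were lower in silenced cells too, HMGCS1 averaging 25.4 ± 0.43 FPKM there and 102.8 ± 2.0 with lovastatin and CPT-11. Of the 20 sterol synthesis genes 17 were lower in silenced cells and none was higher. CYP51A1 (-0.44 ± 0.26, limma adjusted p = 0.38), TM7SF2 (-0.60 ± 0.17, adjusted p = 0.054) and PMVK (0.02 ± 0.15, adjusted p = 0.96) did not pass. The treatment label of the silenced cells names lovastatin, and whether they received it was not tested.

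Against untreated cells, silenced cells with CPT-11 had lower ACSL3, SCD, ME1 and ACACA and higher FADS1, 5 of 10 members beside 37.8% of all genes (18.3% higher and 19.5% lower). ACSL3 averaged 13.8 ± 0.67 FPKM in silenced cells and 28.2 ± 2.6 in untreated cells, 0.488 of the untreated mean (-0.98 ± 0.10, adjusted p = 3.5e-05). SCD differed by -0.62 ± 0.05 (adjusted p = 4.7e-06), ME1 by -0.40 ± 0.08 (adjusted p = 0.0026), ACACA by -0.29 ± 0.06 (adjusted p = 0.0054) and FADS1 by 0.23 ± 0.05 (adjusted p = 0.0068). FASN was higher in all silenced than in all untreated libraries but did not pass (0.25 ± 0.10, adjusted p = 0.067). It passed without CPT-11 replicate 3 in the shared fit (adjusted p = 0.0026), and its difference was -0.02 ± 0.04 after the GC and length correction (adjusted p = 0.69). The same correction gave 0.28 ± 0.06 for ELOVL6 (adjusted p = 0.0023), which was 0.10 ± 0.09 without it (adjusted p = 0.44). In this comparison 2 of the 14 regulators rose and 4 fell. INSIG1 (-0.36), MBTPS2 (-0.40), SREBF1 (-0.35) and PPARG (-0.35) fell, and PNPLA3 (0.35) and MLXIPL rose. MLXIPL, which encodes the glucose-responsive lipogenic factor ChREBP, averaged 15.7 ± 0.93 FPKM in silenced cells and 9.69 ± 1.2 in untreated cells (limma, 0.65 ± 0.15, adjusted p = 0.0056). With lovastatin and CPT-11 MLXIPL was higher than in untreated cells too (0.68 ± 0.15, adjusted p = 0.0059).

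For the 6 members whose group means spanned at least 0.5 on the log2 scale, the genes of most similar profile were sought over the 12 libraries. Likeness was the root mean square difference of log2 values centred on each gene's mean, smaller being more alike, over libraries that all genes share. ACSS2 was nearest to FDFT1 (0.111), MSMO1 (0.117) and IDI1 (0.121), and among the nearest to SCD were DHCR7 (0.213) and FDFT1 (0.223), all of these being sterol synthesis genes. Those of FASN included the sugar transporter gene SLC2A6 (0.124) and the sterol gene EBP (0.131), and those of ACLY were MMAB (0.071), PYM1 (0.089) and HEXIM1 (0.098). FADS1 was nearest to XDH (0.062), GABARAPL1 (0.063) and TSPYL1 (0.066). XDH measured at most 0.558 FPKM in any library, where the added 1 FPKM narrows its differences, and its means were 0.532 FPKM with lovastatin and CPT-11 and 0.0776 in untreated cells. The nearest to ACSL3 were CYB5B (0.096), SRSF2 (0.134) and PDE4B (0.136). CYB5B, which encodes an outer mitochondrial membrane cytochrome b5, averaged 59.1 ± 2.1 FPKM in silenced cells, 80.9 ± 1.9 with lovastatin and CPT-11, 78.8 ± 6.8 with CPT-11 alone and 113.8 ± 4.7 in untreated cells, so that it too was highest in untreated and lowest in silenced cells.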

How the data were processed

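The deposited table holds FPKM values, which the authors made from their reads with 1 column per library. Tools named, per the submitters' processing notes, are featureCounts 1.5.0-p3 and StringTie 1.3.3b, beside HISAT2 2.0.5 and DESeq2 1.16.1, and the build named is hg19. All 58735 Ensembl features carry the coordinates of GENCODE release 29, on GRCh38, which is used here. FPKM times the deposited gene length (column in bases) gave whole reads within 0.01 for 100% of nonzero values, and thus reads per library. The library factor behind the deposited values was 0.977 to 1.06 of the assigned reads, so changes are relative to the typical gene.

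limma 3.58.1 (R 4.3.3) with a variance trend was fitted to log2(FPKM + 1) of all 12 libraries with a mean per group. A gene was tested if 3 or more libraries had 10 reads or more (at median library size) and all libraries together 15. Benjamini-Hochberg adjustment ran over the 18047 genes left, with a threshold of 0.05. The fit was tested on simulated reads. The members, lists and tests were chosen with earlier results of these data known. Named beside the members are at most 3 genes per list and comparison with the smallest p among those past the threshold, and the 3 protein-coding genes nearest in profile, some of which are not reported here. RN7SL2, FTH1, the markers named, and SREBF1 and SLC25A1 with lovastatin were chosen after their values were seen. So were the genes outside the members named in the comparisons of silenced cells with lovastatin-treated or untreated cells. Alternatives were another pseudocount and filter, library totals, recovered reads (voom), a GC and length correction, the replicate number as a block, only the groups compared, and each library left out.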

Additional observations from a re-analysis of the deposited data

How the results depend on the processing

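The calls of SCD, ACSS2 and ACLY with lovastatin over CPT-11 alone held in every setting run. Over all members, comparisons and settings, 1172 values kept their direction and side of the threshold, 31 passed anew, 44 no longer passed and 13 changed sign. FADS2, with 235 to 401 reads per library, had the fewest reads of the members. With only the groups compared in the fit, calls over all genes numbered 1210 for CPT-11 over untreated, 36 for lovastatin over CPT-11, 554 for silenced over CPT-11 and 2608 for silenced over lovastatin. The GC and length correction gave 4555, 314 and 2226 for CPT-11 over untreated, lovastatin over CPT-11 and silenced over lovastatin. Under it 7 members passed with lovastatin over CPT-11, beside 1.77% of all genes. In silenced over CPT-11 it gave 1 member, beside 17.3% of all genes (3080 of 17778). No filter gave 0 members and 1750 genes in silenced over CPT-11, where only the groups compared gave 0 members as well, and voom on recovered reads gave 141 genes for lovastatin over CPT-11.

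Leaving out 1 library gave 1929 to 4419 genes for CPT-11 over untreated, 41 to 5469 for lovastatin over CPT-11, 1029 to 7849 for silenced over CPT-11 and 592 to 2457 for silenced over lovastatin, the highest in each without CPT-11 replicate 3. Members called ran from 4 to 7 for lovastatin over CPT-11 and 0 to 5 for silenced over CPT-11.

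Same-numbered libraries correlated at -0.39 to 0.18. Between lovastatin and untreated libraries each correlated best with the library of its own number (0.18, 0.04 and 0.16), which was not so in the other comparisons. With 3 libraries per group these values do not settle whether the numbers pair libraries. The replicate block gave 46 genes for lovastatin over CPT-11, 2358 for silenced over CPT-11 with 1 member, and 771 for silenced over lovastatin. The block with the GC and length correction gave 143 for lovastatin over CPT-11 and 2339 for silenced over CPT-11.

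Signs changed only for differences that did not pass. ME1 with lovastatin over CPT-11 was 0.065 under the GC and length correction, block or not, and -0.11 to 0.031 with 1 library left out. ACACA in silenced over CPT-11 was -0.012 to 0.076 with 1 library left out. In silenced over untreated cells, scaling to library totals gave 0.081 for ACLY and 0.023 for ACSS2, the GC and length correction, block or not, -0.021 for FASN and -0.056 for FADS2, and leaving out 1 library -0.037 to 0.0079 for ACLY. The causes were not tested.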

Other observations

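Genes that store fatty acids and genes that burn them were measured beside the lipogenic enzymes. Of 15 tested genes of glycerolipid assembly and storage, 4 rose and 2 fell with CPT-11 over untreated cells, beside 8.85% of genes higher and 7.72% lower. PLIN2, a coat protein of lipid droplets, averaged 9.11 ± 0.91 FPKM with CPT-11 and 5.55 ± 0.15 in untreated cells (limma, 0.62 ± 0.08, adjusted p = 0.00037), and the phosphatidate phosphatase gene LPIN3 7.75 ± 0.83 and 4.73 ± 0.73 FPKM (0.61 ± 0.10, adjusted p = 0.0015). MBOAT1, a lysophospholipid acyltransferase gene, fell by 0.52 (adjusted p = 0.0047). With lovastatin over CPT-11 alone 1 of these 15 genes passed, beside 0.465% of all genes. It was LPIN1, at 5.89 ± 0.11 FPKM with lovastatin and CPT-11 and 3.13 ± 0.14 with CPT-11 alone (limma, 0.74 ± 0.07, adjusted p = 0.00021). Without CPT-11 replicate 3, 7 rose and 1 fell in that comparison, beside 16% of all genes higher and 14.4% lower.

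Of 16 fatty acid oxidation genes, 4 rose and none fell with CPT-11 over untreated cells, beside 8.85% of all genes higher and 7.72% lower. The median of the 16 was 0.10. SLC25A20, the mitochondrial carnitine carrier, averaged 12.8 ± 0.44 FPKM with CPT-11 and 8.97 ± 0.47 in untreated cells, and ACADVL, the very long chain acyl-CoA dehydrogenase, 82.3 ± 9.7 and 59.6 ± 2.8 FPKM. With lovastatin over CPT-11 alone none of the 16 passed with limma, with a median of 0.00, beside 0.465% of all genes that passed. Without CPT-11 replicate 3, 4 of the 16 rose and 1 fell there, beside 16% of all genes higher and 14.4% lower. In silenced cells over CPT-11 alone 2 of the 16 rose and 1 fell, beside 10% of all genes higher and 12% lower. HADHB, of the mitochondrial trifunctional protein, fell (15.2 ± 0.14 and 20.3 ± 1.4 FPKM, limma adjusted p = 0.0019), and ACAA1 and ECI2 rose. Of 8 tested genes of other acyl-CoA synthetases and thioesterases, ACSL4 and ACSL5 fell and ACSL1 rose. SLC25A1, the mitochondrial citrate carrier, averaged 56.8 ± 0.57 FPKM in silenced cells and 32.8 ± 7.5 with CPT-11 alone (0.80 ± 0.15, limma adjusted p = 0.0081). SLC25A1 differed by 0.74 ± 0.15 with lovastatin over CPT-11 alone and did not pass (limma adjusted p = 0.073). In silenced over lovastatin-treated cells it differed by 0.06 ± 0.15 (limma adjusted p = 0.86). Without CPT-11 replicate 3, 6 of the 16 oxidation genes rose and 2 fell in silenced cells over CPT-11 alone, beside 43.7% of all genes.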
